A study of Homo sapiens with 10 samples.

Results

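The genes described here are the 8 that write, carry or erase the phosphate on the alpha subunit of translation initiation factor eIF2. They were taken by gene symbol from the deposited count table, in which they are 8 of 28380 genes, and all 8 passed the low-count filter and were among the 13378 genes tested. They are the eIF2 alpha kinases EIF2AK1 (HRI), EIF2AK2 (PKR), EIF2AK3 (PERK) and EIF2AK4 (GCN2), the kinase substrate EIF2S1 (eIF2 alpha), the regulatory subunits PPP1R15A (GADD34) and PPP1R15B (CReP) that bring protein phosphatase PP1 to eIF2 alpha, and IMPACT, an inhibitor of GCN2.

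RNA was sequenced from RPE-1 cells, a telomerase-immortalized human retinal pigment epithelial line, after 4 h with either the vehicle DMSO or 25 µM sulforaphane (SFN), an isothiocyanate from cruciferous vegetables. Each condition had 5 libraries of 50000 cells per replicate, made with the Lexogen QuantSeq kit, which reads transcripts near their 3′ ends. All libraries came from the same line with no genetic change named in the labels, and the only labelled difference was the agent. The labels do not say whether the replicates were separate cultures, and the study's general statement that its data came from independent replicates does not say what was independent for these libraries. The p-values therefore measure the spread between these libraries, which may be technical.

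Phosphorylated eIF2 alpha holds back the exchange factor eIF2B, which lowers general translation initiation while favouring a few messages such as that of the transcription factor ATF4. The kinases answer to different stresses: HRI to heme deficiency and mitochondrial or oxidative stress, PKR to double-stranded RNA, PERK to unfolded proteins in the endoplasmic reticulum, and GCN2 to uncharged tRNA and stalled ribosomes. CReP is the constitutive phosphatase subunit, and GADD34 is the stress-inducible subunit that closes the feedback loop. The transcript levels given here measure neither the activity of a kinase nor the phosphorylation of eIF2 alpha.

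Library totals were 15689294 to 20666692 counts in DMSO and 12375860 to 17308706 counts in SFN. DMSO replicate 1 stood apart. Its mean Spearman correlation with the other DMSO libraries was 0.935, against at least 0.979 for the other DMSO libraries. Many results whose call or size depended on DMSO replicate 1, though not all, are also given without it. Of 13 retinal pigment epithelium markers, 11 were in the table and 4 reached 1 CPM (counts scaled to a common library total), namely BEST1, OTX2, MITF and PMEL, while 7 were below it, including the visual cycle genes RPE65 and RLBP1 with at most 3 and 4 counts. Their summed level was 62.5 to 104 CPM in DMSO and 55.8 to 137 CPM in SFN, but single markers differed. The pigment cell factor MITF (log2 fold change -1.12, edgeR adjusted p 5.3e-05) and the homeobox factor OTX2 (-0.64, adjusted p 0.0029) were lower in SFN. BEST1 was at 1.17 (adjusted p 0.16), and without DMSO replicate 1 it rose (1.68, adjusted p 0.0096). Its spread was wide, with 19.4 to 107 CPM in SFN. In DMSO it was at 41.8 CPM in replicate 1 and at 5.42 to 18.2 CPM in the other libraries. The part of these markers in the results given here was not tested. Of 4 epithelial keratins, 3 reached 1 CPM. None of the 4 markers of other cell types found in the table did so in the mean of either group, and their sum was at most 0.810 CPM in any library. In bulk libraries such as these, fewer cells with a transcript and less of it per cell cannot be told apart.

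Promoter windows of 7 of the 8 genes were found in RefSeq (GRCh38.p14), each with 250 bases before and 50 after the annotated start, and EIF2AK1 had no entry. They were searched on both strands for 6 motifs named for factors of the stress response. The stretches of sequence that follow are from the 3 genes whose transcripts were higher in SFN, and capitals mark the matches, with positions counted from the start site.

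In PPP1R15B, at chr1:204411888-204412067 on the minus strand (bases -250 to -71), the capitals mark a C/EBP-ATF response element core (TGATGNAA) at -227 and a CCAAT box at -159.
PPP1R15B: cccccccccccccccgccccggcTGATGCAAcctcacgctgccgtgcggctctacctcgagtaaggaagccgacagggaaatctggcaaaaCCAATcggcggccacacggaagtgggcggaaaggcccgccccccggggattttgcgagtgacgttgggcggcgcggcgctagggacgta

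In EIF2AK3, at chr2:88627465-88627714 on the minus strand (bases -250 to -1), the capitals mark CCAAT boxes, read forward at -232 and -53 and in reverse at -194 and -139.
EIF2AK3: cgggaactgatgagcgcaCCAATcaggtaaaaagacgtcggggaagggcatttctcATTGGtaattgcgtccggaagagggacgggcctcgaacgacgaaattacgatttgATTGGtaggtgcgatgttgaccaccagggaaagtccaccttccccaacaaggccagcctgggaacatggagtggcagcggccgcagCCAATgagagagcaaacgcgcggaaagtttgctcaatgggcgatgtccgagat

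In PPP1R15A only short stretches are shown, since untranslated exons of other transcripts cover 209 of the 250 upstream bases in GENCODE 44. The stretch at chr19:48872258-48872287 on the plus strand holds the antioxidant response element letters TGACNNNGC at -152, and the stretch at chr19:48872352-48872381 holds a cyclic AMP response element (TGACGTCA) at -58.
PPP1R15A, -163 to -134: aaactccgccgTGACGTTGCaaaagctgga
PPP1R15A, -69 to -40: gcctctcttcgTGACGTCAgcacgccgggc

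No motif was in all 3 of these windows, and no match overlapped another. The CCAAT box was in PPP1R15B, EIF2AK3 and EIF2AK2 and in 34.6% of all 35116 RefSeq promoter windows. The response element core was in 3.62% of all windows, the cyclic AMP response element in 1.85% and the antioxidant response element letters in 13.35%, and each was in 1 of the 7 windows of these genes. PPP1R15A held the last of these a further time, in reverse at -179. The unfolded protein response element TGACGTGG (0.729% of all windows) and the heat shock pair GAANNTTC (6.77%) were in none of the 7. A match describes letters in a window and is not a binding site.

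Of the 8 genes, 3 rose in SFN at an adjusted p under 0.05 by edgeR's quasi-likelihood test, and none fell. The 3 were PPP1R15A, EIF2AK3 and PPP1R15B, so that both phosphatase subunits and a single kinase were higher. Over all genes tested, 9.07% rose and 13.9% fell. This background depended on DMSO replicate 1, without which 3058 of 13566 genes rose and 3193 fell, and 4 of the 8 members rose and none fell, the fourth being EIF2S1. The same 3 genes had no overlap between the groups in CPM, as did 19.9% of all genes. No member fell at an unadjusted p under 0.05 either, and DESeq2 called none lower. With weights for library quality in limma-voom, however, EIF2AK2 and EIF2AK4 were called lower.

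**Figure D1:**
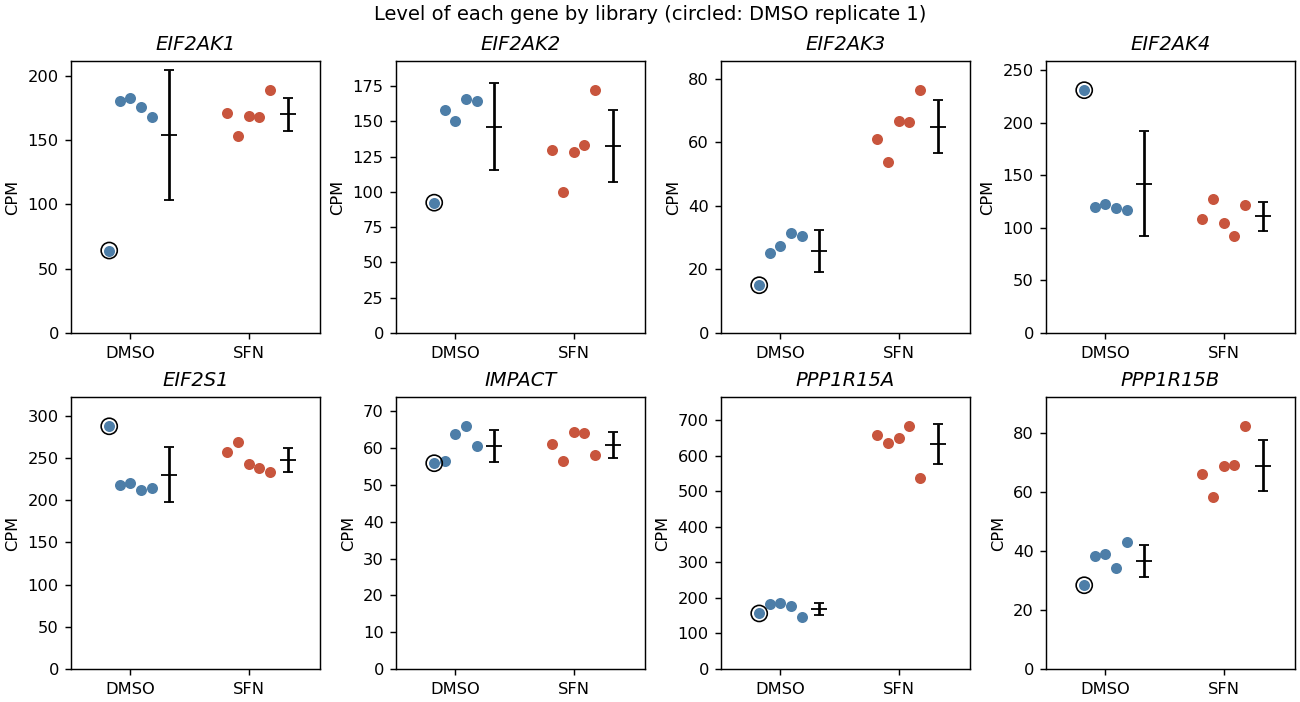
Levels in CPM (vertical axes, linear from 0) of the 8 genes in each library, DMSO in blue and SFN in red, with DMSO replicate 1 circled and bars for the mean and SD of 5 libraries. The groups stand fully apart for EIF2AK3, PPP1R15A and PPP1R15B, and the circled library is the lowest or highest DMSO point for every gene other than PPP1R15A.

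PPP1R15A, the inducible phosphatase subunit at chr19:48872212-48876059 (GRCh38, plus strand), showed the largest change of the 8. In DMSO replicates 1 to 5 its levels were 156, 183, 187, 176 and 147 CPM. In SFN replicates 1 to 5 they were 659, 637, 650, 684 and 537 CPM. Every SFN library was above every DMSO library, the SFN libraries other than replicate 5 lay close together, and DMSO replicate 1 was within the range of the others. The mean went from 170 ± 17.3 CPM to 633 ± 56.6 CPM (SD, n = 5 each). The log2 fold change was 1.90 (SE 0.11, 95% confidence interval 1.65 to 2.15), a 3.73-fold increase, with an adjusted p of 8.5e-07 by edgeR. Of all genes tested, 1.08% had a larger log2 fold change.

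PPP1R15B, the constitutive phosphatase subunit at chr1:204396492-204411887 (minus strand), also rose. Its DMSO levels were 28.4, 38.2, 39, 34.4 and 42.9 CPM, and its SFN levels were 66.0, 58.5, 68.7, 69.0 and 82.3 CPM. The groups did not overlap, and replicate 5 was the highest library in each. The mean went from 36.6 ± 5.48 to 68.9 ± 8.62 CPM (SD, n = 5), a log2 fold change of 0.91 (SE 0.13, interval 0.62 to 1.21), or 1.88-fold, with an adjusted p of 4.4e-04 by edgeR. With 456 to 1166 counts per library it rested on fewer reads than PPP1R15A, which had 2483 to 11059.

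The inducible subunit rose more than the constitutive subunit. Within a library, the ratio of the counts of the 2 genes needs no scaling between libraries. On the log2 scale the ratio of PPP1R15A to PPP1R15B was 2.46, 2.26, 2.26, 2.36 and 1.78 in the DMSO libraries and 3.32, 3.45, 3.24, 3.31 and 2.70 in the SFN libraries. The groups did not overlap, and replicate 5 was the lowest of each. The difference was 0.98 (SE 0.17), or 1.97-fold, with an exact two-sided permutation p of 0.00794, the smallest that 5 libraries against 5 can give, and 0.00992 after Benjamini-Hochberg adjustment over the 5 ratios tested.

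EIF2AK3, which encodes the endoplasmic reticulum kinase PERK (chr2:88556741-88691518, minus strand), was the kinase that rose. Its DMSO levels were 15, 25.2, 27.3, 31.5 and 30.5 CPM. Its SFN levels were 61.1, 53.8, 66.6, 66.5 and 76.5 CPM. The lowest SFN library lay well above the highest DMSO library, and DMSO replicate 1 was the lowest of all. The mean went from 25.9 ± 6.59 to 64.9 ± 8.32 CPM (SD, n = 5), a log2 fold change of 1.33 (SE 0.19, interval 0.92 to 1.73), or 2.51-fold, with an adjusted p of 3.4e-04 by edgeR. Without DMSO replicate 1 the log2 fold change was 1.18 and the adjusted p 2.3e-06. The gene had 241 to 1083 counts per library, and 2.09% of all genes had a larger log2 fold change.

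EIF2AK1, which encodes the heme-regulated kinase HRI (chr7:6022247-6059175, minus strand), had DMSO levels of 64.1, 181, 183, 176 and 168 CPM and SFN levels of 171, 153, 169, 168 and 189 CPM. Apart from DMSO replicate 1, the DMSO libraries (168 to 183 CPM) lay within the range of the SFN libraries (153 to 189 CPM). The log2 fold change was 0.14 (SE 0.23, interval -0.37 to 0.65, edgeR adjusted p 0.73), and without DMSO replicate 1 it was -0.06 (adjusted p 0.55). The sign therefore depended on that library, and the interval leaves room for a change in either direction.

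EIF2AK2, which encodes the double-stranded RNA-dependent kinase PKR (chr2:37099210-37157522, minus strand), had DMSO levels of 92.3, 158, 150, 166 and 164 CPM and SFN levels of 130, 99.6, 128, 133 and 172 CPM. The groups overlapped, and 4 of the 5 SFN libraries lay below DMSO replicates 2 to 5. The log2 fold change was -0.14 (SE 0.18, interval -0.54 to 0.25, edgeR adjusted p 0.64). Without DMSO replicate 1 it was -0.27 (adjusted p 0.082).

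EIF2AK4, which encodes the amino acid sensing kinase GCN2 (chr15:39934115-40035591, plus strand), had DMSO levels of 231, 120, 123, 119 and 117 CPM and SFN levels of 109, 127, 104, 92.0 and 122 CPM. DMSO replicate 1 was here the highest library, and the other libraries overlapped. The log2 fold change was -0.36 (SE 0.20, interval -0.79 to 0.075, edgeR adjusted p 0.23). Without DMSO replicate 1 it was -0.12 (adjusted p 0.32). The DMSO coefficient of variation was 35.1% with that library and 2.16% without it. Counting alone gave 2.0%, from the mean count of all DMSO libraries with replicate 1 included, so it is not matched to the value without it.

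EIF2AK3 moved apart from the other kinases, whose ratios to each other were not tested. Since EIF2AK3 was already called higher, its ratios are not separate evidence of its rise. The log2 ratio of EIF2AK3 to EIF2AK2 was -2.62, -2.65, -2.46, -2.40 and -2.43 in DMSO and -1.09, -0.89, -0.94, -1.0 and -1.17 in SFN. The groups did not overlap, the DMSO libraries lay closer together than in any other ratio tested, and DMSO replicate 1 was within the range of the others. The difference was 1.49 (SE 0.072), or 2.82-fold, with an exact permutation p of 0.00794 (adjusted 0.00992). The ratio of EIF2AK3 to EIF2AK1 was higher in SFN by 1.13 (SE 0.14) and that of EIF2AK3 to EIF2AK4 by 1.67 (SE 0.40), both without overlap and with the same exact permutation p. The ratio to EIF2AK1 was -2.84 to -2.09 in DMSO, with DMSO replicate 1 the highest, and -1.51 to -1.31 in SFN. For the ratio to EIF2AK4 the spread in DMSO was wide, and without DMSO replicate 1 the difference was 1.30.

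**Figure D2:**
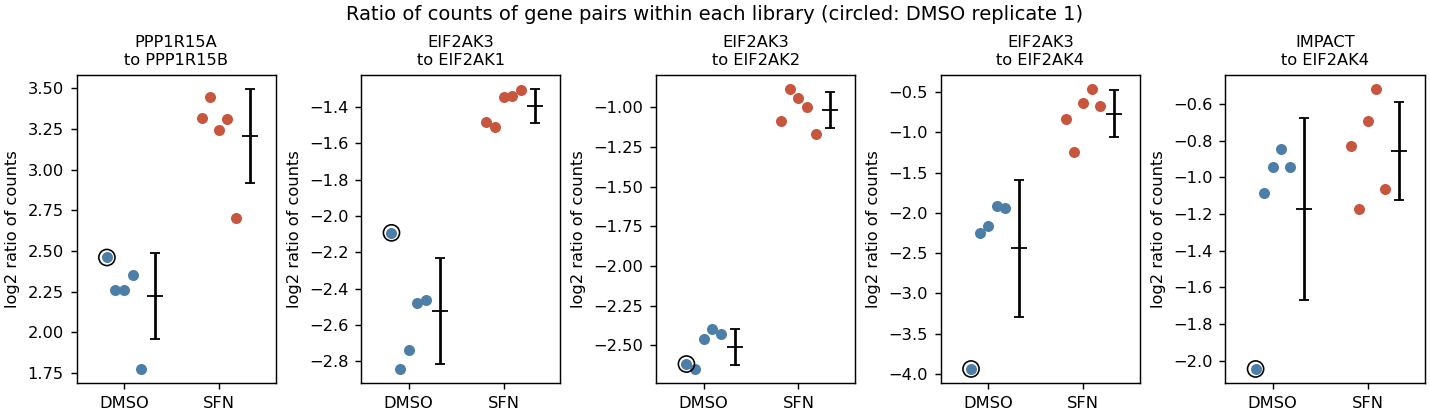
Log2 ratios of the counts of 2 genes within each library for the 5 pairs tested, DMSO in blue and SFN in red, with bars for the mean and SD of 5 libraries. The ratio of PPP1R15A to PPP1R15B and the ratios of EIF2AK3 to each other kinase do not overlap between the groups, and the ratio of IMPACT to EIF2AK4 does.

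EIF2S1, the substrate of all these kinases (chr14:67360328-67386516, plus strand), had DMSO levels of 287, 218, 220, 212 and 214 CPM and SFN levels of 257, 268, 242, 239 and 233 CPM. DMSO replicate 1 was above every SFN library and the other DMSO libraries were below every one. Its log2 fold change was 0.11 (SE 0.11, interval -0.14 to 0.35), with an adjusted p of 0.56 by edgeR. Without DMSO replicate 1 it was 0.19 (SE 0.072) and passed the test with an adjusted p of 0.041, so the call depended on whether that library was included.

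IMPACT, which competes with GCN2 for its activator GCN1 (chr18:24426634-24453531, plus strand), had the smallest difference of the 8. Its levels were 55.9 to 66.0 CPM in DMSO and 56.4 to 64.3 CPM in SFN. The ranges lay almost on each other and DMSO replicate 1 was not set apart. The log2 fold change was 0.0063 (SE 0.094, interval -0.20 to 0.21, edgeR adjusted p 0.97), which leaves room for at most a small change in either direction. The log2 ratio of IMPACT to EIF2AK4 was higher in SFN by 0.32 (SE 0.25), the groups overlapped, and the exact permutation p was 0.246.

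**Figure D3:**
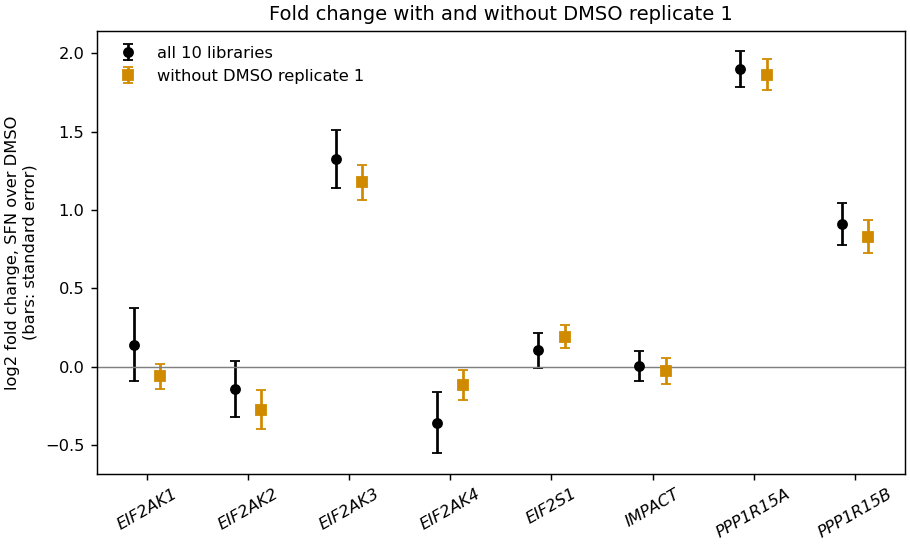
Log2 fold changes (SFN over DMSO) of the 8 genes from edgeR, with bars for the standard error, for all 10 libraries (black circles) and without DMSO replicate 1 (orange squares). PPP1R15A, EIF2AK3 and PPP1R15B lie well above 0 with and without it, while the point of EIF2AK1 changes sign and that of EIF2AK4 moves from -0.36 to -0.12.

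Some counts could hold reads of an antisense neighbour, since the strand setting of the counting is not given in the sources used here. In GENCODE 44, exons of EIF2AK1 shared 532 bases with AIMP2 on the other strand, which had 291 to 771 counts per library and a log2 fold change of -0.34 (edgeR adjusted p 0.26). Exons of EIF2AK2 shared 35 bases with GPATCH11 (log2 fold change -0.38, adjusted p 0.0501) and 401 with the pseudogene ARL14EPP1 (at most 6 counts). For EIF2AK3 the antisense neighbour with shared exonic bases, ENSG00000225420, had at most 2 counts. PPP1R15B shared 523 exonic bases with ENSG00000288934, which was not analysed here. PPP1R15A had no such neighbour in the annotation.

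The other genes of the pathway were read from the same edgeR fit in 7 lists, of which 59 of 60 genes were tested. Of these, 26 rose and 1 fell, and without DMSO replicate 1 36 rose and 5 fell. Of all genes tested, 9.07% rose and 13.9% fell, and the median log2 fold change was -0.028. Without DMSO replicate 1, 3058 of 13566 genes rose and 3193 fell. The lists were chosen with earlier results of these data known.

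Around eIF2 itself little passed the test with all libraries. None of the 3 genes for the other eIF2 subunits and for the assembly factor CDC123 rose or fell, with or without adjustment, and DESeq2 called none. Their median log2 fold change was 0.21. EIF2S2 (the beta subunit) was at 2367 CPM in DMSO replicate 1, at 360 to 412 CPM in the other DMSO libraries and at 635 to 1241 CPM in SFN, and without DMSO replicate 1 both EIF2S2 (log2 fold change 1.27) and CDC123 (0.31) rose by edgeR. The 5 subunits of eIF2B, the exchange factor that phosphorylated eIF2 inhibits, had a median of -0.076. None passed by DESeq2 or in the main edgeR fit, and 1 was lower at an unadjusted p under 0.05, namely EIF2B4 (-0.38, adjusted p 0.11). With scaling by library size only, edgeR called 1 of the 5 lower. Library quality weights in limma-voom called 2 lower. Of 8 other eIF2 and initiator tRNA partners, only BZW1, an eIF5 mimic protein, rose (0.41, SE 0.10, adjusted p 0.015), and EIF5, the GTPase activator of eIF2, had 0.71 (adjusted p 0.0598). In EIF5, too, DMSO replicate 1 (986 CPM) lay with the SFN libraries (765 to 1007 CPM) and away from the other DMSO libraries (399 to 420 CPM). Without DMSO replicate 1, 5 of the 8 rose, among them EIF5 (log2 fold change 1.06, adjusted p 7.0e-07 by edgeR).

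The phosphatase partners and the genes listed as regulators of the kinases gave mixed values. Among 5 PP1 catalytic subunits and actins, which complete the phosphatase with GADD34 or CReP, PPP1CC rose (0.26, SE 0.087, edgeR adjusted p 0.047) and the list median was 0.24. That call was not stable. No gene of the list passed with upper quartile scaling, library size only, no low-count filter or quantile normalization in limma-voom, nor without DMSO replicate 2, 3 or 4 or SFN replicate 1, 3, 4 or 5. Without DMSO replicate 1, PPP1CA, PPP1CB and PPP1CC rose (0.44, 0.22 and 0.26). The list of 11 regulators of the kinases also holds ERN1 and ATF6. They are unfolded protein response sensors rather than regulators of these kinases, and neither passed (edgeR adjusted p 0.60 and 0.12). Of the 11, 3 rose and 1 fell, with a median of 0.048. Without DMSO replicate 1 the same 3 rose and 4 fell, namely GCN1 (-0.43), the RNA-editing enzyme ADAR (-0.30), NCK1 (-0.35) and DELE1 (-0.33). HSPA5 (BiP), the chaperone that holds PERK inactive, had a log2 fold change of 0.90 (adjusted p 0.0019). DNAJC3 (p58IPK), an inhibitor of PKR and PERK, had 0.85 (adjusted p 9.4e-04). In the mitochondrial route to HRI, the protease OMA1 rose (0.75, adjusted p 0.0030), while its substrate DELE1, which activates HRI, fell by 0.40 on the log2 scale (adjusted p 0.036). No regulator was called lower with no low-count filter or with quantile normalization in limma-voom, nor without DMSO replicate 3 or 4 or SFN replicate 1, 3, 4 or 5.

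Downstream of eIF2 alpha the genes that passed were all higher. Of 8 transcription factors and cofactors, 6 rose and none fell by edgeR, with a median log2 fold change of 1.56. The increases were 3.04 for ATF3, 2.92 for TRIB3 (a pseudokinase that binds ATF4) and 2.21 for DDIT3 (CHOP, which activates PPP1R15A). They were 1.63 for CEBPG, 1.5 for ATF4 (1.83 without DMSO replicate 1) and 1.05 for NUPR1 (1.38 without that library). ATF3 was low in DMSO, with a mean of 0.997 CPM and as few as 11 counts in a library. CEBPB was at 0.81 (adjusted p 0.0505) and ATF5 at -0.31 (adjusted p 0.079), and without DMSO replicate 1 CEBPB rose and ATF5 fell. At an unadjusted p under 0.05, 1 of the 8 was lower, and DESeq2 also called 1 lower.

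Of 20 target genes of ATF4 and CHOP, 19 were tested, 15 rose and none fell by edgeR at either an adjusted or an unadjusted p under 0.05, nor by DESeq2. Their median was 1.07. Among them were the amino acid transporter subunit SLC3A2 (2.17, adjusted p 1.2e-06), the serine synthesis enzyme PSAT1 (1.43, adjusted p 2.7e-06) and the glycyl-tRNA synthetase GARS1 (1.29, adjusted p 1.8e-05). The glutathione-degrading enzyme CHAC1 went from 0.123 ± 0.075 CPM to 17.0 ± 2.93 CPM (SD, n = 5), and with so few DMSO counts its fitted fold change depends on the prior count. ERO1A, STC2, AARS1 and EIF4EBP1 did not pass. EIF4EBP1, a repressor of cap-dependent translation, was at 121 CPM in DMSO replicate 1, at 36.2 to 47.0 CPM in the other DMSO libraries and at 48.9 to 107 CPM in SFN, and its log2 fold change was 0.39 with that library and 0.85 without it (adjusted p 0.0010 by edgeR), which brought the list to 16 increases. GDF15 was below the low-count filter. PPP1R15A, itself a target of ATF4 and CHOP, lay above the medians of both lists and PPP1R15B below them.

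**Figure D4:**
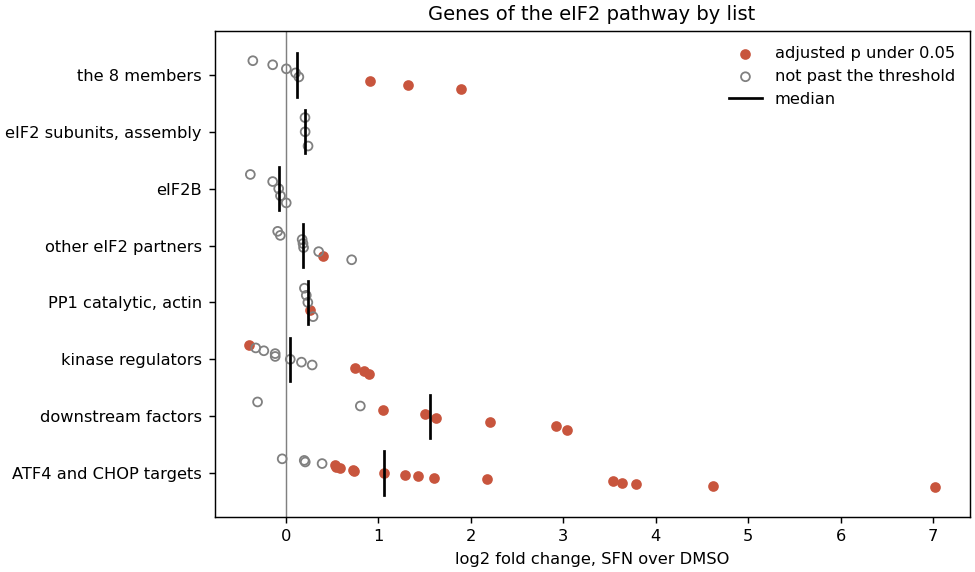
Log2 fold changes (SFN over DMSO, edgeR, n = 5 each) of the genes of the 7 pathway lists and the 8 members, filled where the adjusted p was under 0.05, with a black line at each median. The filled points gather in the lists of downstream transcription factors (6 of 8) and of ATF4 and CHOP targets (15 of 19). The eIF2B list and the list of other eIF2 subunits and assembly have none. The point farthest right is CHAC1, near 0 CPM in DMSO.

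The genes whose profile was most like each member were found over the 10 libraries among 10038 genes with a mean of at least 5 CPM, by the root mean square difference of log2 CPM after each gene was centred on its own mean. Since the profile holds the treatment and DMSO replicate 1, likeness follows both. For PPP1R15A they were JMJD6 (0.112), XBP1 (0.149) and HSPH1 (0.160), for EIF2AK3 they were MCL1 (0.133), WDCP (0.138) and PPP1R10 (0.141), and for PPP1R15B they were HSPA13 (0.101), ZRANB1 (0.102) and ETV5 (0.102). For the members without a call they were CLSTN1, DAG1 and CNOT3 (EIF2AK1), ZDHHC17, ZNF148 and PLEKHA8 (EIF2AK2), SEPT11, RSF1 and DHTKD1 (EIF2AK4), PRXL2A, CENPU and EIF1AX (EIF2S1), and RAD17, YTHDF1 and SNX12 (IMPACT). Among the 3 members that rose, EIF2AK3 and PPP1R15B were the closest pair (0.284), EIF2AK3 and PPP1R15A came next (0.420), and PPP1R15A and PPP1R15B were farthest apart (0.550).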

How the data were processed

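RNA from RPE-1 cells treated with SFN or DMSO was sequenced with QuantSeq. The submitters' processing notes name FastQC, STAR, featureCounts, edgeR and the builds hg38 and GRCh38, with no versions given in the sources used here, and the study's methods name the Bluebee pipeline. The authors deposited unnormalized counts for each Ensembl gene, with replicates kept separate. The 8 genes and the pathway lists were chosen with earlier results of these data known.

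Counts were filtered with filterByExpr, scaled by TMM and compared with glmQLFit and glmQLFTest in edgeR 4.0.16 (R 4.3.3), with Benjamini-Hochberg adjustment over all 13378 genes and a call at an adjusted p under 0.05. CPM are per TMM-scaled library. The SE was derived from the F statistic and the size of the log2 fold change. Ratios used counts plus 0.5. The sources mention repeated measures without defining them, so no block was used. Alternatives were other scalings, no filter, DESeq2 1.42.0, limma 3.58.1 (voom), a replicate block and leaving out each library. For single members an exact permutation test of mean log2 CPM was added, with its p not adjusted. No replicate pair had identical counts or differed by less than the sampling noise (lowest chi-square per degree of freedom 3.50). A total of 46 rows without a symbol stayed in the table. Named were all 8 members, the 3 genes most like each member, and genes with overlapping exons. From the pathway lists, genes past the threshold, at a list's ends or on which a result turned could be named. Not all of those past the threshold are named. The methods were also run on simulated counts that had no outlying library. That run does not show how they behave with a library such as DMSO replicate 1.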

Additional observations from a re-analysis of the deposited data

Results flagged for a closer look

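With 5 libraries a group, a library was taken to stand apart where its gap to the nearest other exceeded 0.71 of the group's range. Of 32 groups examined 9 had such a library, and 8 of the 9 were DMSO replicate 1. Chance would give about 1.6 if the groups were independent. They share libraries and genes, so the count cannot be judged against that number. That library was low in EIF2AK1 (64.1 CPM, others 168 to 183) and in EIF2AK2 (92.3 CPM, others 150 to 166). It was high in EIF2AK4 (231 CPM, others 117 to 123) and in EIF2S1 (287 CPM, others 212 to 220). The same library had the lowest log2 ratio of EIF2AK3 to EIF2AK4 (-3.94, others -2.25 to -1.91) and of IMPACT to EIF2AK4 (-2.04, others -1.08 to -0.85). Its TMM factor was 0.886 (others 1.06 to 1.08) and its mean Spearman correlation with its own group was 0.935 (others 0.979 to 0.982). SFN replicate 5 had a log2 ratio of PPP1R15A to PPP1R15B of 2.70, below the 3.24 to 3.45 of the other SFN libraries. What sets these libraries apart was not tested.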

How the results depend on the processing

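EIF2AK3, PPP1R15A and PPP1R15B kept their direction and passed the threshold in 19 of 19 alternatives, with log2 fold changes of 1.18 to 1.40, 1.79 to 1.95 and 0.82 to 0.98. The alternatives include an exact permutation test of mean log2 CPM, whose p of 0.00794 for each of these genes was not adjusted. Over all genes, library quality weights in limma-voom gave 3874 higher and 4041 lower, and leaving out each library gave 906 to 3058 higher and 1470 to 3193 lower, the highest of both without DMSO replicate 1. Of calls, 39.5% were increases with TMM (1214 against 1862) and 27.5% with library size only (819 against 2163). With quality weights 2 members were called lower, EIF2AK2 (-0.30, adjusted p 0.0019) and EIF2AK4 (-0.20, adjusted p 0.026), EIF2S1 was called higher (0.19, adjusted p 0.0067) and EIF2AK1 turned to -0.044. Leaving out each library gave -0.060 to 0.21 for EIF2AK1, -0.27 to -0.052 for EIF2AK2, -0.42 to -0.12 for EIF2AK4 and 0.076 to 0.19 for EIF2S1, the last called (adjusted p 0.041) without DMSO replicate 1. IMPACT turned to -0.027 with upper quartile scaling, -0.083 with library size only, -0.0050 with no filter and -0.021 with voom quantile normalization, and leaving out each library gave -0.026 to 0.037. Of the other listed genes, 1 was lower in edgeR, 3 with library size only, 2 with DESeq2, 7 with quality weights, 0 with no filter, voom quantile normalization or the replicate block, and 0 to 5 without each library, and 23 to 39 were higher. The causes were not tested.

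Whether replicate numbers pair the libraries was not settled. The deviations of same-numbered libraries correlated at -0.27 to 0.48, highest for replicate 5, and not every library matched its own number best. DMSO replicate 1 was the best DMSO match of SFN replicates 1, 2 and 3. Because the deviations include that outlying library, this check cannot decide on pairing. With the replicate block DELE1 and PPP1CC were no longer called, and edgeR called 911 genes higher and 1530 lower and the same number of members (3 and 0). A paired sign-flip test of the ratios (differences 0.98, 1.13, 1.49 and 1.67) gave adjusted p = 0.078, since 5 pairs cannot go below 0.0625 unadjusted. Without each library these differences were 0.87 to 1.11, 1.05 to 1.23, 1.46 to 1.53 and 1.30 to 1.80, and that of IMPACT to EIF2AK4 0.098 to 0.40. Counting alone gave EIF2AK3, the member with the fewest counts (at least 241 in every library), a coefficient of variation of 4.64% in DMSO, against 25.4% observed and 10.2% without DMSO replicate 1. For EIF2AK4 these were 2.0%, 35.1% and 2.16%. The counting values use the mean count of all DMSO libraries, so they are not matched to the values without DMSO replicate 1.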
